A study of Brachypodium distachyon with 4 samples.

Results

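Read counts were examined at the 6 loci of Brachypodium distachyon that encode the basic helix-loop-helix (bHLH) transcription factors of the stomatal lineage, out of 35125 loci in the count table. The loci were taken by identifier, with no filter on expression. They are SPCH1 (BRADI_1g38650v3), SPCH2 (BRADI_3g09670v3), MUTE (BRADI_1g18400v3), FAMA (BRADI_2g22810v3), ICE1 (BRADI_4g17460v3) and SCRM2 (BRADI_2g59497v3). The count table does not state these names, and they could not be checked against an annotation here. All 6 had enough reads to be tested.

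Leaf messenger RNA was sequenced from 2 libraries of the mutant jmj1-1 and 2 libraries of Bd21-3, an inbred line of this small temperate grass, which is also the background of the mutant. Every library came from leaves on day 17 at leaf stage 4, taken 10 h after lights on in cycles of 20 h light and 4 h dark. The genotype jmj1-1 is the single mutant allele, and the labels describe neither its lesion nor the plants that went into each library. The p-values therefore measure only the spread between these libraries, which may be technical. The name JMJ marks proteins with a JmjC domain, the catalytic domain of many histone demethylases. The contrast of mutant and wild type asks where leaf transcript levels differ.

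Stomata are the pores of the leaf surface, each opened and closed by a pair of guard cells. In Arabidopsis, SPEECHLESS (SPCH) starts the stomatal lineage with an asymmetric division, MUTE commits a cell to become a guard mother cell, and FAMA ends the divisions of that cell and promotes guard cell fate. Each of these works as a dimer with ICE1 or its relative SCRM2. Brachypodium has the same families with a duplicated SPCH, and its stomata form in files of cells near the base of the growing leaf, where MUTE also takes part in forming the subsidiary cells that flank grass guard cells.

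Depth was 16089629 and 13825916 counted reads in the jmj1-1 libraries, against 16520046 and 16130508 in the Bd21-3 libraries. The 6 loci together took 858 and 748 of these reads in jmj1-1, against 901 and 885 in Bd21-3. Levels below are CPM, the usual scaling of read counts by library size, with library sizes adjusted by TMM, a method that aligns libraries on the bulk of genes. In these units 1 read was worth between 0.0613 and 0.0708 CPM. Transcript lengths were not used here, so levels are compared between genotypes at each locus and not between loci. In leaf RNA, fewer cells of a type and less RNA per cell cannot be told apart.

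None of the 6 loci passed the test between genotypes, edgeR's quasi-likelihood F-test on 21456 genes, with p-values adjusted over all of them by Benjamini and Hochberg's method and a threshold of 0.05. Over all tested genes 13.9% passed, and 7.75% passed with lower values in jmj1-1. At an unadjusted p under 0.05 there were 2 of the 6, SPCH1 and SPCH2, against 24.2% of all tested genes. DESeq2 called 0 of the 6, with 0 at an unadjusted p under 0.05, and it called 5.98% of all genes entered. limma-voom and edgeR's older quasi-likelihood method called 0 of the 6, with 2 at an unadjusted p under 0.05, and called 13.5% and 13.8% of all genes. edgeR's likelihood ratio test called 2 of the 6 and 13.7% of all genes. The median log2 change of the 6 loci, jmj1-1 over Bd21-3, was -0.16, beside 0.0033 over all tested genes. At 3 loci, SPCH1, SPCH2 and SCRM2, both jmj1-1 libraries lay below both Bd21-3 libraries. Libraries of the genotypes did not overlap in that direction at 25.3% of tested genes, and in either direction at 50.9%.

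**Figure D1:**
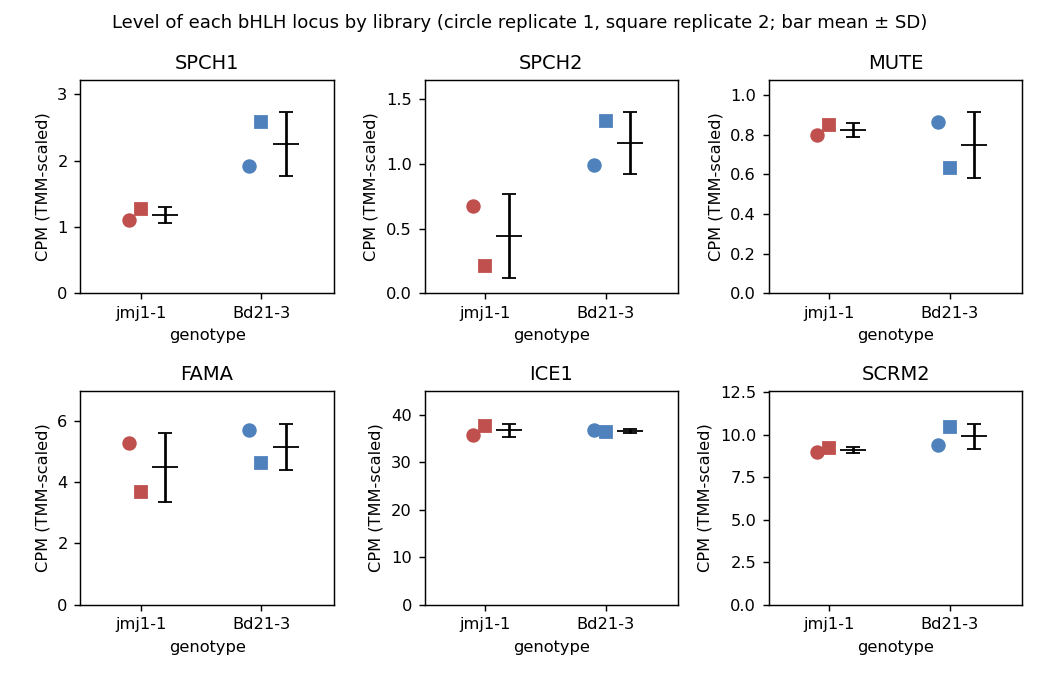
Level of each bHLH locus in CPM on TMM-scaled library sizes, with a panel and an axis from 0 for each locus. Circles are replicate 1, squares are replicate 2, and the black bar is the mean ± SD of the 2 libraries; at SPCH1 the jmj1-1 libraries sit at 1.10 and 1.27 CPM, below both Bd21-3 libraries, and at ICE1 the genotypes interleave.

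The entry factors, the SPCH pair, had the largest differences of the set. SPCH1 had 18 reads in each jmj1-1 library, against 31 and 41 reads in the Bd21-3 libraries. These counts correspond to 1.10 and 1.27 CPM in jmj1-1, against 1.92 and 2.59 CPM in Bd21-3. Both mutant libraries were low and close to each other, and the wild type libraries lay further apart than the mutant ones. SPCH1 averaged 1.19 ± 0.12 CPM in jmj1-1 and 2.25 ± 0.48 CPM in Bd21-3 (SD, n = 2 each). The log2 change was -0.92 (SE 0.34, approximate 95% interval -1.60 to -0.25), with adjusted p = 0.057 in edgeR's quasi-likelihood test. That interval is not adjusted for the number of genes tested. By unadjusted p SPCH1 ranked 3131 among the tested genes.

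SPCH2, the second copy, had fewer reads and a wider spread. It had 11 and 3 reads in the jmj1-1 libraries, against 16 and 21 reads in the Bd21-3 libraries. On the CPM scale it was at 0.674 and 0.212 in jmj1-1, against 0.988 and 1.33 in Bd21-3. The lowest value belonged to jmj1-1 replicate 2, and jmj1-1 replicate 1 lay nearer to Bd21-3 replicate 1 than to the other mutant library. SPCH2 averaged 0.443 ± 0.33 CPM in jmj1-1 and 1.16 ± 0.24 CPM in Bd21-3 (SD, n = 2 each). The log2 change was -1.31 (SE 0.50, approximate 95% interval -2.31 to -0.32), with adjusted p = 0.067 in edgeR's quasi-likelihood test.

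Summing reads over the libraries of a genotype gave the same order without a fitted spread. SPCH1 had 36 reads in jmj1-1 and 72 in Bd21-3, a ratio of 0.526 after scaling, with an exact Clopper-Pearson 95% interval of 0.342 to 0.795. SPCH2 had 14 reads in jmj1-1 and 37 in Bd21-3, a ratio of 0.398 (0.199 to 0.754). These intervals cover counting error only. The spread between libraries is not in them, and neither is any duplication of reads, for which no molecular identifiers are stated.

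Single libraries mattered for SPCH2. Without jmj1-1 replicate 1, only 3 reads were left in the mutant and the log2 change was -2.40 (adjusted p = 0.040 in edgeR's quasi-likelihood test), in a fit that called 8.5% of all tested genes. Without jmj1-1 replicate 2 it was -0.77 (adjusted p = 0.51). Without Bd21-3 replicate 1 both SPCH loci passed, SPCH1 at a log2 change of -1.13 (adjusted p = 0.033) and SPCH2 at -1.51 (adjusted p = 0.042), when 11.8% of all tested genes passed. SPCH1 had a log2 change of -0.69 without Bd21-3 replicate 2 (adjusted p = 0.31).

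Whether the SPCH loci passed varied with the tool, and with scaling only where the TMM factors were squared. Under RLE, upper-quartile or total-count scaling neither passed. In edgeR's likelihood ratio test both had adjusted p = 0.038. With the TMM factors squared, a scaling that moves the libraries beyond TMM by as much again as TMM moves them from their raw totals, both passed as well (adjusted p = 0.038 for SPCH1 and 0.0497 for SPCH2), with 15.8% of genes called. DESeq2 gave log2 changes of -0.92 and -1.36 with adjusted p = 0.47 and 0.51. In all 15 alternative fits the log2 change of SPCH1 was negative, between -1.13 and -0.69, and so was that of SPCH2, between -2.40 and -0.77. These fits reuse the same libraries, which did not overlap between genotypes at either locus, so the constant sign is no added evidence. The log2 change of SCRM2 was also negative in all 15.

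**Figure D2:**
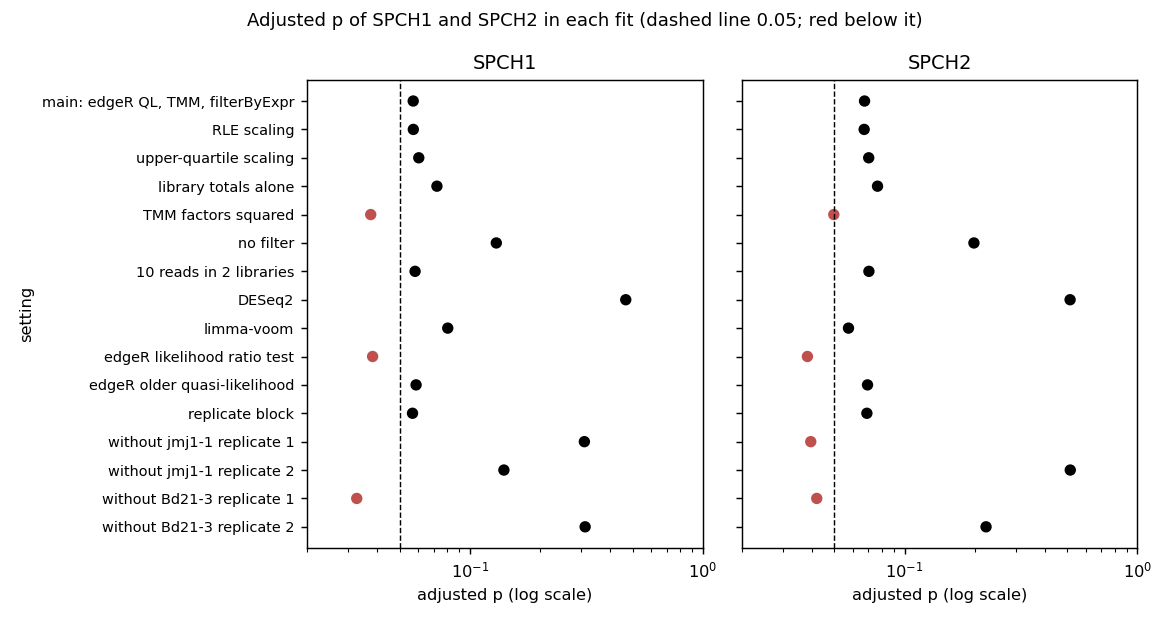
Adjusted p of SPCH1 and SPCH2 on a log axis in the fit used throughout (top row) and in each alternative fit, 1 point per fit. Points left of the dashed line at 0.05 are red; SPCH1 has 3 such fits and SPCH2 has 4, and the DESeq2 points lie far to the right at 0.47 and 0.51.

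MUTE, named after the Arabidopsis commitment factor that follows SPCH, showed no detectable difference at its depth. It had 13 and 12 reads in the jmj1-1 libraries, against 14 and 10 reads in the Bd21-3 libraries. The wild type libraries held both the highest and the lowest count, so the genotypes overlapped. MUTE averaged 0.823 ± 0.037 CPM in jmj1-1 and 0.748 ± 0.16 CPM in Bd21-3 (SD, n = 2 each). Its log2 change of 0.13 had an SE of 0.47 and an approximate 95% interval of -0.80 to 1.06 (adjusted p = 0.92 in edgeR's quasi-likelihood test). On the linear scale that interval runs from 0.574-fold to 2.09-fold. Without Bd21-3 replicate 2 the log2 change was -0.074.

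FAMA, the factor of guard cell fate, was read more often and also overlapped between genotypes. It had 86 and 52 reads in the jmj1-1 libraries, against 92 and 73 reads in the Bd21-3 libraries. Its levels were 5.27 and 3.68 CPM in jmj1-1, against 5.68 and 4.61 CPM in Bd21-3. In each genotype replicate 2 was the lower library, and jmj1-1 replicate 1 lay between the Bd21-3 libraries. The log2 change was -0.19 (SE 0.21, approximate 95% interval -0.60 to 0.23, adjusted p = 0.66 in edgeR's quasi-likelihood test). Without jmj1-1 replicate 2 it was 0.036.

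The partner genes lay close between genotypes. ICE1 was at 35.8 and 37.7 CPM in jmj1-1, against 36.8 and 36.3 CPM in Bd21-3, from 533 to 596 reads per library. The wild type libraries lay between the mutant ones. Its log2 change was 0.0058 (SE 0.075, adjusted p = 0.98 in edgeR's quasi-likelihood test), and the approximate 95% interval of -0.14 to 0.16 corresponds to 0.905-fold to 1.11-fold. The sign of this small value turned to -0.048 with the TMM factors squared, and it also turned without jmj1-1 replicate 2 (-0.028) and without Bd21-3 replicate 2 (-0.0038).

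SCRM2, the other partner, was at 8.95 and 9.20 CPM in jmj1-1, against 9.39 and 10.4 CPM in Bd21-3. Both mutant libraries were below both wild type libraries, with Bd21-3 replicate 2 the highest. SCRM2 averaged 9.08 ± 0.18 CPM in jmj1-1 and 9.91 ± 0.73 CPM in Bd21-3 (SD, n = 2 each). The log2 change was -0.13 (SE 0.14, approximate 95% interval -0.41 to 0.16, adjusted p = 0.66 in edgeR's quasi-likelihood test). The pooled ratio of reads was 0.916 (exact 95% interval 0.777 to 1.08).

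**Figure D3:**
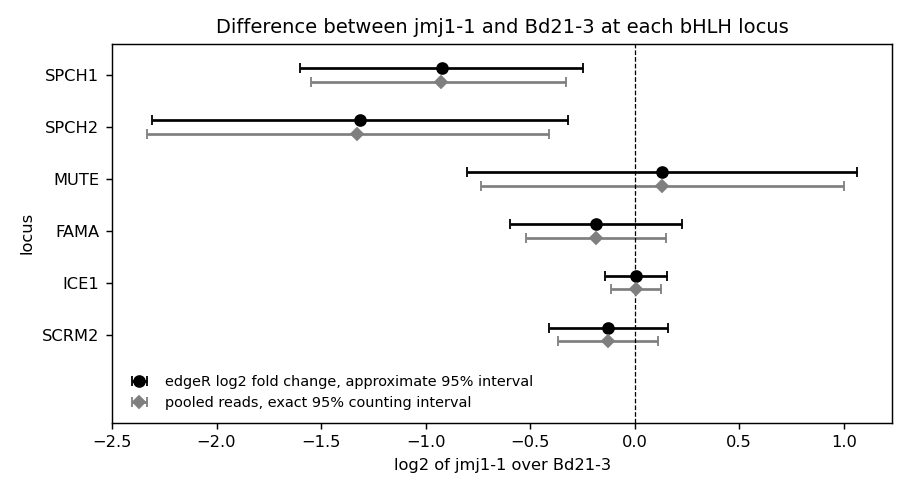
Difference between jmj1-1 and Bd21-3 at each bHLH locus on the log2 scale, with 0 marked by the dashed line. Black circles are edgeR's log2 fold changes with approximate 95% intervals and grey diamonds are the ratios of pooled reads with exact 95% counting intervals; both lie below 0 with their intervals at SPCH1 and SPCH2, and the intervals of MUTE, FAMA, ICE1 and SCRM2 include 0.

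A comparison within each library needs no scaling between libraries. Of the reads at SPCH1, SPCH2, MUTE and FAMA, the SPCH pair took 29 of 128 (22.7%) and 21 of 85 (24.7%) in the jmj1-1 libraries, against 47 of 153 (30.7%) and 62 of 145 (42.8%) in the Bd21-3 libraries. The shares were lower in both mutant libraries. The exact 95% interval of jmj1-1 replicate 2, 16.0% to 35.3%, overlaps that of Bd21-3 replicate 1, 23.5% to 38.7%. With the libraries of a genotype summed, the share was 23.5% (18.0% to 29.7%) in jmj1-1 and 36.6% (31.1% to 42.3%) in Bd21-3. These intervals cover counting error only and leave out the spread between libraries, and no test was made of these shares. The shares use the same SPCH reads as the levels above, so they are no separate evidence of a difference.

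FAMA took the largest share of reads among these 4 loci in every library, 67.2% and 61.2% in jmj1-1, against 60.1% and 50.3% in Bd21-3. MUTE took 10.2% and 14.1% in jmj1-1, against 9.15% and 6.90% in Bd21-3. Shares add up to a fixed total, so a lower SPCH share raises the others and does not show a rise of FAMA or MUTE. In CPM, FAMA averaged 4.48 in jmj1-1 and 5.15 in Bd21-3, and MUTE averaged 0.823 and 0.748. Shares of reads also depend on transcript length, so they order a locus between libraries and do not order the loci by abundance.

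**Figure D4:**
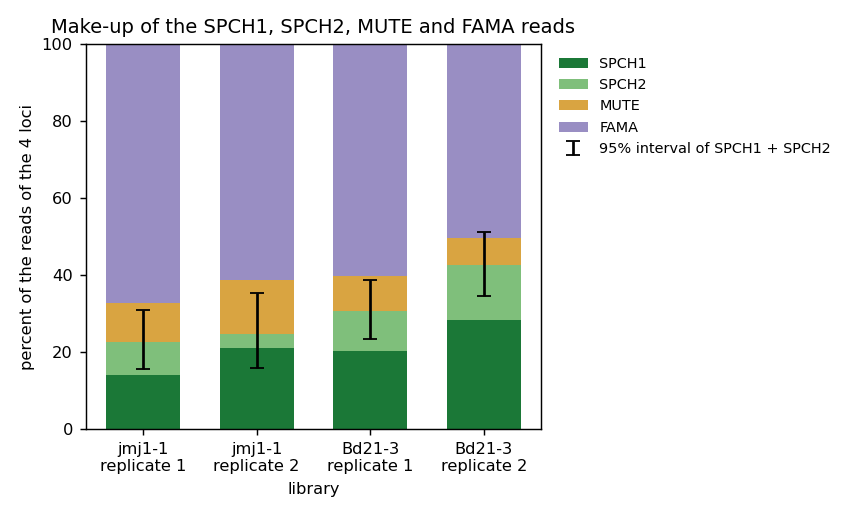
Make-up of the reads at SPCH1, SPCH2, MUTE and FAMA in each library, as percent of the reads of these 4 loci stacked to the full total. The black bars are exact 95% counting intervals of the SPCH1 and SPCH2 shares added, which are 22.7% and 24.7% in jmj1-1 and 30.7% and 42.8% in Bd21-3.

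Set against the partner genes, the SPCH pair gave the same order. This comparison uses the same SPCH reads, and the partner genes lay close between genotypes, so it is no separate evidence. SPCH1 and SPCH2 made up 3.82% and 3.07% of the reads at SPCH1, SPCH2, ICE1 and SCRM2 in the jmj1-1 libraries, against 5.91% and 7.73% in the Bd21-3 libraries. Summed over libraries the share was 3.46% (exact 95% interval 2.58% to 4.54%) in jmj1-1 and 6.83% (5.64% to 8.17%) in Bd21-3, with intervals of counting error only. Within the pair, SPCH2 took 37.9% and 14.3% of the reads in jmj1-1, against 34.0% and 33.9% in Bd21-3. The exact 95% interval of jmj1-1 replicate 2, 3.05% to 36.3%, covers both wild type values, so no shift between the copies was detectable. SCRM2 took 20.0% and 19.6% of the reads of the partner pair in jmj1-1, against 20.3% and 22.3% in Bd21-3.

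Replicates of a genotype were also compared at each locus against counting error alone. Over the 6 loci and both genotypes, the exact 95% interval of the ratio of replicate 1 to replicate 2 included 1 in 11 of 12 pairs. The exception was FAMA in jmj1-1, with a ratio of 1.43 and an interval that starts just above 1 and ends at 2.06. SPCH2 in jmj1-1 had a ratio of 3.18 with an interval of 0.839 to 17.7. At the 3 to 41 reads of SPCH1, SPCH2 and MUTE such intervals are too wide to show a moderate spread. Over all tested genes with a mean of at least 10 reads, replicates differed by more than counting error, with a chi-square per degree of freedom of 1.84 between the jmj1-1 libraries and 2.41 between the Bd21-3 libraries.

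Read depth limited the test more at some members than at others. Among tested genes with a mean under 20 reads per library, where SPCH2 (12.8) and MUTE (12.3) lie, 8.95% were called and the smallest log2 change called was 1.12 in size. Of these 175 calls among 1955 genes, only 35 were lower in jmj1-1. Among genes with 20 to 50 reads, the class of SPCH1 (27.0), 6.5% were called, from 0.71 upward in size. Of these 176 calls among 2706 genes, 63 were lower in jmj1-1. The log2 changes of SPCH1 and SPCH2, -0.92 and -1.31, are larger in size than these smallest values. They are smaller than the medians of the called genes in their classes, 1.24 and 2.36. The smallest values and medians cover both directions, and most called genes of these classes were higher in jmj1-1. A gene could be tested with enough reads in only 2 libraries, so the class under 20 reads can hold genes read mainly in 1 genotype. How far this shaped the sizes called there was not tested. Among genes with 50 to 200 reads, the class of FAMA and SCRM2, 7.87% were called, from 0.36 upward. Among genes with 200 to 1000 reads, the class of ICE1, 13.8% were called, from 0.18 upward.

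**Figure D5:**
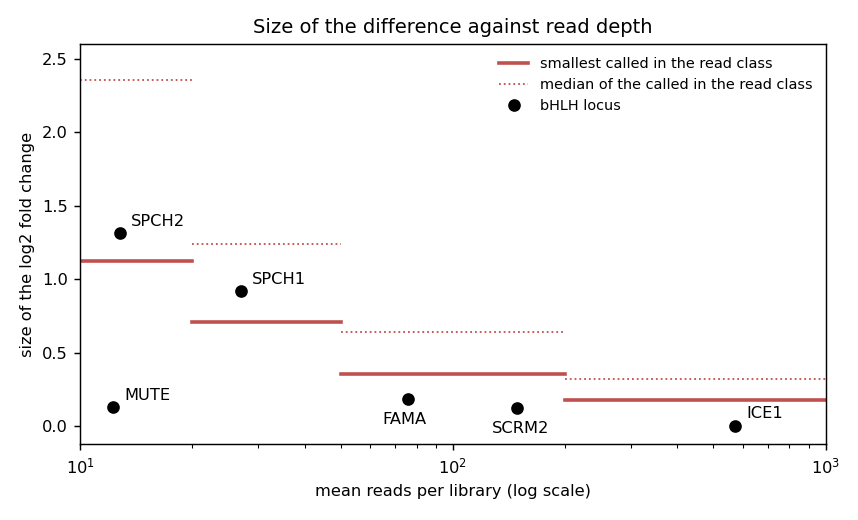
Size of the log2 fold change of each bHLH locus against its mean reads per library (log axis). Solid red lines mark the smallest size called in each class of read depth and dotted lines the median of the called genes; SPCH1 and SPCH2 lie between the lines, and MUTE, FAMA, SCRM2 and ICE1 lie below the solid line of their class.

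The values of SPCH1 were also set against those of every other tested locus. The nearest by Euclidean distance of log2(CPM + 1) over the 4 libraries was BRADI_3g03450v3, at a distance of 0.13, with 1.29 and 1.27 CPM in jmj1-1, against 1.92 and 2.46 CPM in Bd21-3. Next was BRADI_3g32025v3, at 0.17, with 1.04 and 1.35 CPM in jmj1-1, against 1.92 and 2.21 CPM in Bd21-3. Neither passed edgeR's quasi-likelihood test (adjusted p = 0.13 and 0.12). The files used here do not pair these identifiers with descriptions. Within a distance of 0.5 of SPCH1 lay 147 loci, 0.685% of the others. Loci chosen by this distance resemble SPCH1 in level and direction by construction, so the likeness is no evidence of a link.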

How the data were processed

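The authors deposited whole-number read counts per gene, 1 column per library, per the file header. Tools listed in the submitters' processing notes are cutadapt, featureCounts, HISAT2 and SAMtools, with no versions or roles. Per the labels' protocols the mRNA kit was stranded. No source used here gives the build, the annotation, the strand setting or the handling of multiply matching reads, so reads of overlapping genes and of close relatives such as SPCH1 and SPCH2 could be shared.

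The 6 members and the alternatives were chosen with earlier results of these data known. Counts of 21456 genes kept by filterByExpr were tested across the whole table in R 4.3.3 with edgeR 4.0.16 (TMM, glmQLFit, glmQLFTest, two-sided, Benjamini-Hochberg at 0.05). The procedure was checked on simulated data, in which all changed genes had higher levels than SPCH2 and MUTE. Recovery there was required only for changes larger than those of the 6 members in the fit to all libraries. SEs are the absolute log2 change divided by the root of F, and their intervals use the model's degrees of freedom. Alternatives were other scalings and filters, DESeq2 1.42.0, limma-voom (limma 3.58.1), other edgeR tests, a replicate block and leaving out each library with the same genes tested. Named loci were all members and the 2 loci nearest to the member of smallest p. An exact permutation test of 2 against 2 libraries cannot reach 0.05 and was not used. The RefSeq gene table matched 0 identifiers, so sequences, lengths, the JMJ1 transcript, leaf markers and other stomatal genes were not analysed here. Replicates differed by more than sampling noise, so no library was a copy.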

Additional observations from a re-analysis of the deposited data

How the results depend on the processing

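None of the 6 loci was called under RLE, upper-quartile or total-count scaling, either other filter, DESeq2, limma-voom, the older quasi-likelihood method or the replicate block. SPCH1 and SPCH2, 2 of 6, were called with TMM factors squared (log2 changes -0.98 and -1.37) and in the likelihood ratio test (-0.92 and -1.32). For these settings the cause was not tested. Fits without 1 library called 0 to 2 members, with log2 changes of -1.13 to -0.69 for SPCH1, -2.40 to -0.77 for SPCH2, -0.074 to 0.37 for MUTE, -0.48 to 0.036 for FAMA, -0.028 to 0.045 for ICE1 and -0.20 to -0.050 for SCRM2. Such fits have fewer libraries and take the spread of the lone library from the other genotype. ICE1 turned to -0.048 with TMM factors squared. Without 1 library the pooled ratio of SPCH2 lay between 0.184 and 0.584, and its share of the SPCH1, SPCH2, MUTE and FAMA reads in jmj1-1 between 3.53% and 8.59%. Of all genes, 2978 were called, against 1788 without a filter, 1283 in DESeq2 and 1824 to 2847 without 1 library. The replicate block gave 3140 calls and log2 changes of -0.91 for SPCH1 and -1.32 for SPCH2; it changed no call of a member, and the deviations of same-numbered libraries correlated at -0.016, with nothing in the labels to pair them. SPCH1, SPCH2 and MUTE had only 3 to 41 reads per library, and genes of their depth were called from log2 changes of 0.71 (SPCH1) or 1.12 (SPCH2 and MUTE) in size.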
